A study of Mus musculus with 5 samples.

Results

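The genes followed here were 9 components and receptors of the complement system, and they were read in CRC tumours of mice kept at 30 °C or at 4 °C. They were chosen by symbol, as C1qa, C1qb, C1qc, C3, C4b, Cfb, Cfp, C3ar1 and C5ar1, out of 54113 named entries in the count table. All 9 were found and all 9 passed the filter on low counts, which kept 16133 genes. By the study's description, the tumours were grown from MC-38, a mouse colon adenocarcinoma line, implanted subcutaneously in immunocompetent C57BL/6 mice. They were sequenced as bulk tissue, which does not separate cancer cells from cells of the host, and marker genes of both are given below. RNA came from 3 tumours of mice exposed to 30 °C, which is thermoneutral for mice, and from 2 tumours of mice exposed to 4 °C, each for 2 weeks, and no gene was deleted in either group. MC-38 is a single cell line. Mice for cold exposure were of both sexes and between 5 and 10 weeks old when they entered the experiment, and the labels give no age or sex for single libraries.

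Complement is a cascade of proteases and opsonins that marks cells and debris for removal. The classical pathway starts when C1q, a bundle of chains encoded by C1qa, C1qb and C1qc, binds a surface; C4 and C3 are then cleaved and attach to it. Factor B (Cfb) and properdin (Cfp) form and stabilize the alternative convertase, whereas C3ar1 and C5ar1 are receptors for the small fragments released on cleavage. Macrophages are the usual source of C1q in tissue, the liver is the main source of plasma C3, and C5ar1 is abundant on neutrophils.

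Upstream sequence is shown for 4 genes on which the results below turn: 2 adjacent C1q chains, the member with the most reads and the member with the largest fitted difference. Each is the 250 bases before the RefSeq start on GRCm38.p6, read 5′ to 3′ on the minus strand, and the RefSeq start can differ from the GENCODE gene end. Capitals mark a match, on either strand, to 1 of the motifs searched. These were the PU.1 box (GAGGAA), the C/EBP site (TTGCNNAA), an interferon response element (GAAANNGAA) and the interferon gamma activated site (TTCNNNGAA).
C1qb, chr4:136886201-136886450: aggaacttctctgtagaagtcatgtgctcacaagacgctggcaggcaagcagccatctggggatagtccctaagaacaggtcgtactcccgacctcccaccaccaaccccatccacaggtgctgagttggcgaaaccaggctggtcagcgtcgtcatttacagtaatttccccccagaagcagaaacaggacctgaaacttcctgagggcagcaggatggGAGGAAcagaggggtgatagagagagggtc
C1qc, chr4:136892915-136893164: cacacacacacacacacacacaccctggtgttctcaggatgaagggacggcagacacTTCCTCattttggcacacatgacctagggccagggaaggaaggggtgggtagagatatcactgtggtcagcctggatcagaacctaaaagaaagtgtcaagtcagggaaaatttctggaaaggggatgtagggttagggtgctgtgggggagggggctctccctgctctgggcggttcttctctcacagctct
C3, chr17:57228137-57228386: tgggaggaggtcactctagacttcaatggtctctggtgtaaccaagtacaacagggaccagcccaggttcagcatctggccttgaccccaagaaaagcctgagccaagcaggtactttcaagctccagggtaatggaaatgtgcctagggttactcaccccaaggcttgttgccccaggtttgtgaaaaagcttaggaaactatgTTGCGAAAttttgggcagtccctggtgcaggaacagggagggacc
C5ar1, chr7:16259339-16259588: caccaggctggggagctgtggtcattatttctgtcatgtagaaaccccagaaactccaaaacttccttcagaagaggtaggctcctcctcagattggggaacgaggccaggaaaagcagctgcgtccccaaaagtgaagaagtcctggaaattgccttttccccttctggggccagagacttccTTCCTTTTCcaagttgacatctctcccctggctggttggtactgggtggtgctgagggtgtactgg
C1qb held a PU.1 box from 30 to 25 bases before its start, and C1qc held the same box on the other strand (TTCCTC) from 193 to 188 bases before. C3 held a C/EBP site (TTGCGAAA) from 45 to 38 bases before its start, and C5ar1 held an interferon response element on the other strand from 66 to 58 bases before. In GENCODE the C5ar1 gene reaches to chr7:16259540, so most of its window and this match lie inside that gene. No printed match overlapped another. Of 27025 RefSeq promoters, 23.1% held the PU.1 box, 9.6% the C/EBP site, 7.2% the interferon response element and 7.2% the interferon gamma activated site. In the windows of Cfp and C3ar1 these letters were not found. For C1qa, C4b and Cfb no promoter was printed.

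Counts on named genes ranged from 16191708 to 20320525 per library. Levels are given as scaled CPM, a gene's share of the library's counts after TMM scaling, expressed per 1000000 counts, and replicates are named by group and number. Pancreatic acinar markers summed to 291700 scaled CPM in 30 °C replicate 2 and to between 18.0 and 1884 in the other libraries, and the TMM factor of that library was 0.7378 against 1.0321 to 1.1285 in the others. The label of colon carcinoma was checked against 10 epithelial genes, of which 6 were above 3 counts in all 5 libraries, and their sum was between 17.95 and 171.7 scaled CPM. Vil1 had at most 4 and Cdx2 at most 8 counts. Krt8, a keratin of simple epithelia, varied between libraries, with 33.74, 53.8 and 4.104 scaled CPM at 30 °C and 2.934 and 57.87 at 4 °C. By contrast, the 8 B cell markers summed to 1201 to 3422 scaled CPM and the 8 erythroblast markers to 2781 to 5677. The sum of the 8 splenic mesenchyme markers was between 126.4 and 143.6 at 30 °C and between 228.0 and 288.9 at 4 °C. These values do not show a tissue rich in epithelial carcinoma cells, although no level expected of MC-38 was at hand. The word "tumour" is therefore used below only as the label of a library. The content of the libraries was also unequal, and its part in the results below was not tested.

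The complement genes were compared to ask whether their RNA levels differed after cold exposure. None of the 9 was called at an adjusted p under 0.05, with 0.00% of all genes called in the same fit (edgeR quasi-likelihood test, Benjamini-Hochberg adjustment over 16133 genes). At an unadjusted p under 0.05, 0 of the 9 were higher and 0 lower at 4 °C, against 2.58% and 4.17% of all genes tested, and DESeq2 also called 0 of the 9. For 0 members did the groups of tumours fail to overlap, whereas the 4 °C tumours lay wholly above those at 30 °C for 12.2% of all genes and wholly below for 11.0%. Fitted values were higher at 4 °C for 6 members and lower for 3. Their median log2 fold change (4 °C over 30 °C) was 0.23, beside 0.01 over all genes tested. In bulk samples, fewer cells of a type and less RNA per cell cannot be told apart.

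**Figure D1:**
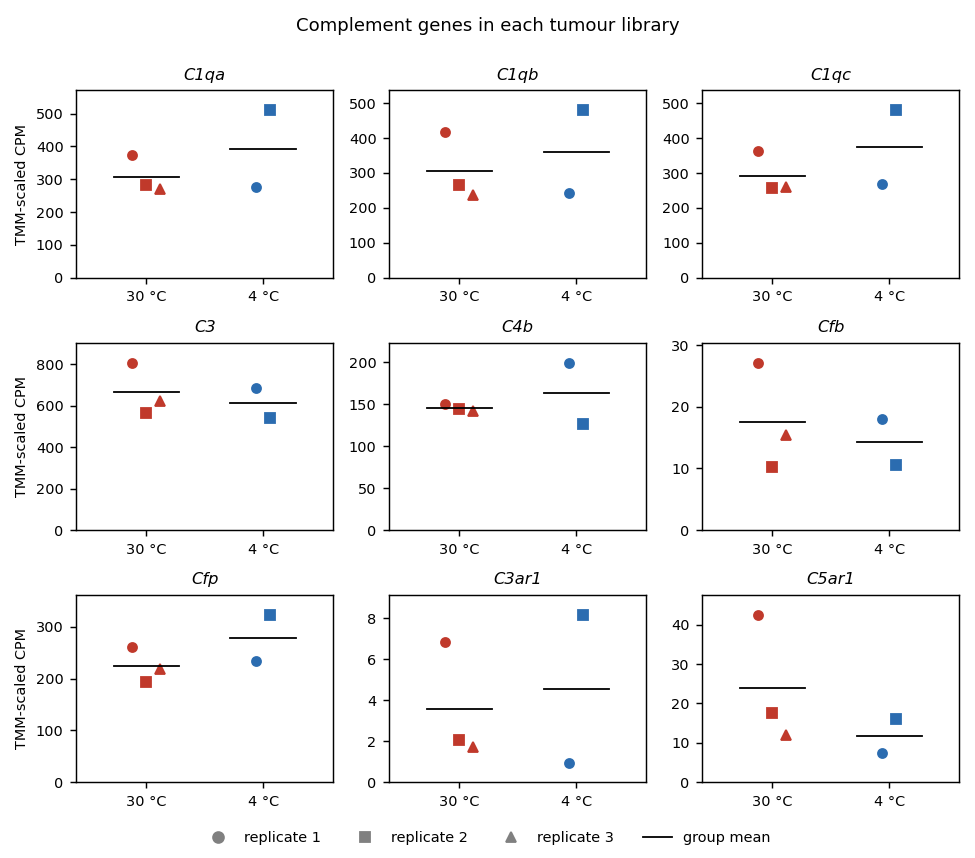
Scaled CPM (y axis) of each of the 9 complement genes in the 3 tumours at 30 °C (red) and the 2 tumours at 4 °C (blue), with symbols for the replicate number and lines for group means. The groups overlap in every panel, and for the C1q chains the highest value belongs to 4 °C replicate 2 and the next to 30 °C replicate 1.

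The members covered a wide range of levels. Per kb of exon, C1qa had a median over the 5 libraries of 270.9 scaled CPM and C1qb of 245.3, which placed them at ranks 2 and 3 of 59 complement genes, after Calr at 275.7. C1qc (138.8), Cfp (134.3) and C3 (121.5) formed a middle group on the same scale. C4b was lower at 25.3, and C5ar1 (6.249), Cfb (5.455) and C3ar1 (0.4769) lowest. The place of Cfb is uncertain, since 79.5% of its exon bases are also exons of another gene, Gm20547. If reads on shared bases were left out of the counts, the Cfb level per kb would be too low. Some neighbours in this order did not hold it in every library: C1qa was above C1qb in 4 of 5 libraries, Cfp above C3 in 4 of 5 and C5ar1 above Cfb in 3 of 5. The other neighbours kept their order in 5 of 5. The combined share of the 9 members in plain counts, without TMM scaling, was highest in 30 °C replicate 1 (0.2631%). It was lowest in 30 °C replicate 2 (0.1277%), where the many acinar counts lower the share of every other gene.

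**Figure D2:**
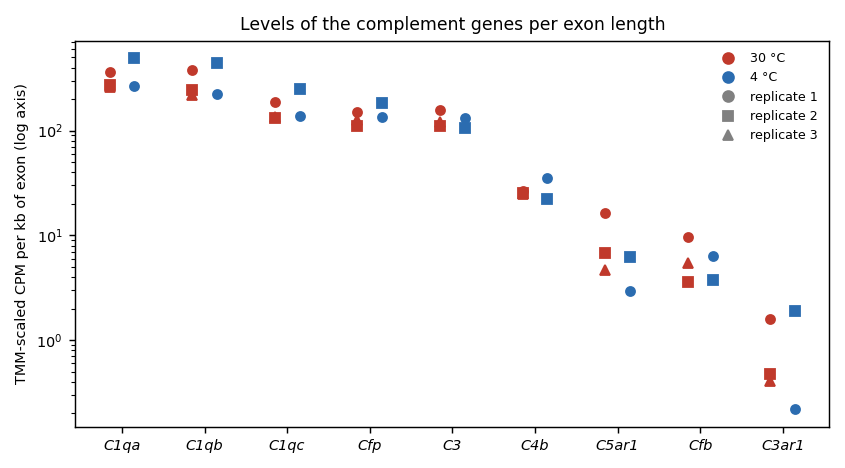
Scaled CPM per kb of merged exon (log axis) of the 9 complement genes in each library, with colour for temperature and symbol for replicate. Median levels run from 270.9 for C1qa to 0.4769 for C3ar1, and C3ar1 and C5ar1 have the widest spread between libraries.

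The C1q chains, which lie side by side on chromosome 4 (GRCm38; C1qb at chr4:136880129-136886187, C1qc at chr4:136889804-136893065 and C1qa at chr4:136895917-136898803), had 1 shared pattern across the tumours. C1qa measured 373.6, 281.7 and 269.3 scaled CPM at 30 °C (replicates 1 to 3) and 275.4 and 509.8 at 4 °C (replicates 1 and 2). C1qb measured 416.7, 266.9 and 236.1 at 30 °C and 242.2 and 479.1 at 4 °C. C1qc measured 363.6, 256.4 and 259.4 at 30 °C and 268.1 and 479.7 at 4 °C. In all 3 chains 4 °C replicate 2 was highest and 30 °C replicate 1 next, while 4 °C replicate 1 lay close to the other tumours at 30 °C. The mean of C1qa was 308 ± 57.0 (SD, n = 3) in the thermoneutral group and 393 ± 166 (SD, n = 2) after cold exposure, a log2 fold change of 0.35 (SE 0.30, 95% confidence interval -0.38 to 1.07, edgeR adjusted p = 0.862). For C1qb the log2 fold change was 0.23 (SE 0.37, edgeR adjusted p = 0.922) and for C1qc 0.35 (SE 0.30, edgeR adjusted p = 0.862). The direction rested on 1 tumour: without 4 °C replicate 2 the log2 fold changes were -0.18, -0.36 and -0.14. Without 4 °C replicate 1 they were 0.73, 0.64 and 0.71.

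C1qa and C1qc kept a nearly fixed proportion, and C1qb varied more against both. Per length, the ratio of C1qa to C1qc was between 1.908 and 2.040 in the 5 libraries, a 1.069-fold range, while the level of each chain ranged more widely. The ratio of C1qa to C1qb was between 0.9379 and 1.193, a 1.272-fold range, that of C1qc to C1qb had a 1.268-fold range, and 30 °C replicate 1 was the only library in which C1qb exceeded C1qa. No stretch of 100 bases was shared between the transcripts of the 3 chains. The 15 macrophage markers, 14 of them above 3 counts in all libraries and Clec4f at 0 in all, summed to 4339, 2584 and 3436 scaled CPM at 30 °C and 3014 and 3481 at 4 °C. The markers differed in pattern, so the sum depends on the list. Marco was at 996.8 in 30 °C replicate 1 and between 98.48 and 209.0 in the other libraries. Adgre1 (220.2) was also highest in 30 °C replicate 1, whereas Mrc1 (49.65) and Cd163 (15.91) were lowest there. Per 100 macrophage marker counts there were 26.59, 31.15 and 22.26 C1q counts at 30 °C and 26.07 and 42.18 at 4 °C. Thus 4 °C replicate 2, the library highest in C1q, was also highest in this ratio. Among macrophage genes, 7 of the 14 tested had a higher and 7 a lower fitted value at 4 °C.

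C3, whose cleavage is the point where the pathways meet, had the most reads of the 9 genes (chr17:57203970-57228136). It measured 807.2, 563.0 and 625.1 scaled CPM at 30 °C and 685.9 and 541.0 at 4 °C. The tumours at 4 °C lay within or just below the range at 30 °C, and unlike for C1q, 4 °C replicate 2 was the lowest library. The log2 fold change was -0.12 (SE 0.23, 95% confidence interval -0.68 to 0.45, edgeR adjusted p = 0.938). It changed sign without 30 °C replicate 1 (0.05) or 4 °C replicate 2 (0.03). Hepatocyte markers were few in these libraries, with a sum between 6.366 and 39.43 scaled CPM for 8 genes, so that C3 alone exceeded them in every tumour. Hc, which encodes C5, the next component of the cascade, had between 4 and 13 counts and did not pass the filter.

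C4b, the mouse C4 component (chr17:34728380-34743882), measured 150.4, 144.1 and 142.3 scaled CPM at 30 °C and 199.1 and 126.6 at 4 °C. The tumours at 30 °C were close together, and those at 4 °C lay on either side of them. The log2 fold change was 0.16 (SE 0.22, 95% confidence interval -0.38 to 0.70, edgeR adjusted p = 0.915) and turned to -0.20 without 4 °C replicate 1. C4a, a near copy next to it, had between 5 and 13 counts and was not tested. Of the 100-base windows of C4b transcripts, 15.2% also occurred in C4a, so the split of reads between both genes is uncertain. The ratio of C3 to C4b counts was 5.365, 3.908 and 4.393 at 30 °C and 3.445 and 4.274 at 4 °C, and the groups overlapped.

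The alternative pathway genes differed from each other in level and in pattern. Cfb, which supplies the protease of the alternative convertase (chr17:34856374-34862518), measured 27.14, 10.18 and 15.41 scaled CPM at 30 °C and 18.0 and 10.6 at 4 °C. Its log2 fold change was -0.30 (SE 0.45, edgeR adjusted p = 0.918), and it turned to 0.16 without 30 °C replicate 1 and to 0.02 without 4 °C replicate 2. In GENCODE M21, 79.5% of the Cfb exon bases are also exons of Gm20547, which had 0 counts in all libraries, so the Cfb counts are uncertain. Properdin, encoded by Cfp (chrX:20925454-20931555), measured 260.5, 192.8 and 218.1 at 30 °C and 233.2 and 321.8 at 4 °C. As for C1q, 4 °C replicate 2 was highest and 30 °C replicate 1 next. The log2 fold change of Cfp was 0.31 (SE 0.22, 95% confidence interval -0.21 to 0.83, edgeR adjusted p = 0.834), and its sign was kept with each tumour left out, from 0.05 without 4 °C replicate 2 to 0.52 without 4 °C replicate 1.

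The anaphylatoxin receptors had the widest spread between tumours among the 9 genes. C5ar1, the receptor for C5a (chr7:16246743-16259540), measured 42.36, 17.58 and 12.09 scaled CPM at 30 °C and 7.509 and 16.06 at 4 °C. The level of 30 °C replicate 1 was far above the others, and the remaining tumours of both groups overlapped. Its log2 fold change of -1.03 was the largest of the 9 in size (SE 0.62, 95% confidence interval -2.53 to 0.47, edgeR adjusted p = 0.811), and it was -0.33 without 30 °C replicate 1, -0.58 without 4 °C replicate 1 and -1.69 without 4 °C replicate 2. The sum of the 12 neutrophil markers was highest and lowest in the same libraries as C5ar1. It was 12940, 8713 and 2995 scaled CPM at 30 °C and 2528 and 4083 at 4 °C. Ly6g (22.67) and Camp (639.9), however, were highest in 30 °C replicate 2, and the other neutrophil markers in 30 °C replicate 1. All 12 were above 3 counts in every library and had lower fitted values at 4 °C, 3 of them at an unadjusted p under 0.05 and none at an adjusted p under 0.05 (edgeR, smallest adjusted p = 0.692). C5ar1 was also set against the counts on the neutrophil markers, per 1000 of which there were 3.274, 2.017 and 4.038 C5ar1 counts at 30 °C and 2.970 and 3.932 at 4 °C, which overlapped. The sums of the 8 monocyte markers were also lower at 4 °C, with 1862, 1290 and 687.2 scaled CPM at 30 °C and 523.4 and 641.4 at 4 °C, so that the groups did not overlap. Chil3 alone was at 1145 in 30 °C replicate 1. Taken singly, 4 of the 8 markers lay wholly lower at 4 °C, where 11.0% of all genes tested did so. Of the 8 monocyte markers, 6 had lower fitted values, 4 of them at an unadjusted p under 0.05, and 2 had higher ones. Erythroblast markers summed to 5140, 5677 and 2781 at 30 °C and 3083 and 2970 at 4 °C, and 7 of 8 had lower fitted values, 3 of them at an unadjusted p under 0.05. Beside these counts of neutrophil, monocyte and erythroblast markers, 4.17% of all genes tested were lower at that unadjusted threshold. No monocyte or erythroblast marker was called after adjustment (edgeR, smallest adjusted p = 0.689 and 0.692). The part of neutrophil, monocyte or erythroblast content in the C5ar1 values was not tested.

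C3ar1, the receptor for C3a (chr6:122847138-122856161), was the lowest member. Its counts were 129, 25 and 40 at 30 °C and 19 and 136 at 4 °C, or 6.865, 2.053 and 1.746 scaled CPM against 0.9449 and 8.147. The tumours at 4 °C were thus the lowest and the highest of all, an 8.62-fold range beside a median range of 1.76-fold over all genes tested. The log2 fold change was 0.34 (SE 0.98, 95% confidence interval -2.03 to 2.72, edgeR adjusted p = 0.957), which became -1.92 without 4 °C replicate 2. The sum of the 8 fibroblast and stroma markers was high in the same pair of libraries, with 1108, 551.1 and 494.2 scaled CPM at 30 °C and 563.4 and 1259 at 4 °C. Not every marker followed the sum: Dpt was highest in 30 °C replicate 2 (31.95) and at 22.83 in 30 °C replicate 1. The part of stroma content was not tested. C5ar1 counts per C3ar1 count were between 6.171 and 8.560 in 4 libraries and 1.971 in 4 °C replicate 2.

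**Figure D3:**
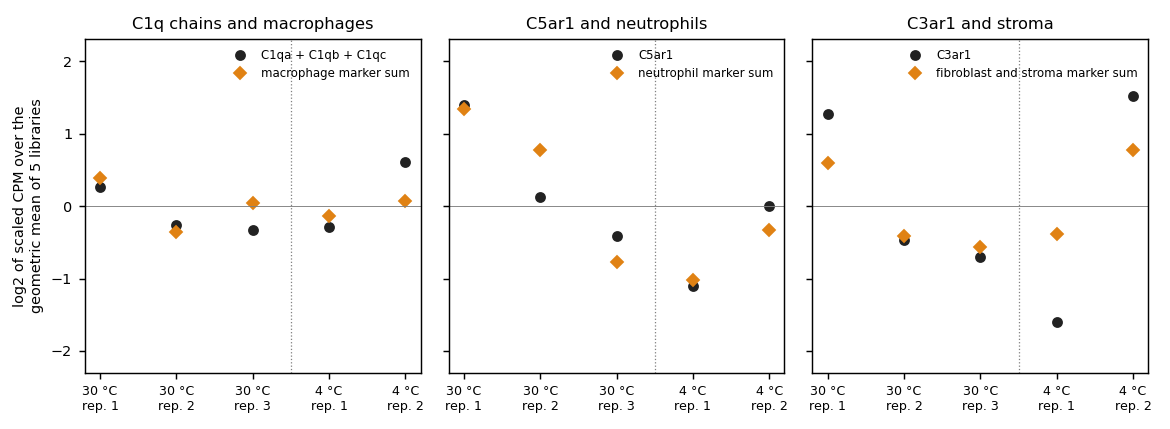
Log2 of scaled CPM over the geometric mean of the 5 libraries for summed C1q chains with summed macrophage markers, C5ar1 with neutrophil markers and C3ar1 with stroma markers; the dotted line parts 30 °C from 4 °C. C5ar1 and the neutrophil sum are highest in 30 °C replicate 1 and lowest in 4 °C replicate 1, whereas the C1q sum is highest in 4 °C replicate 2 (1469 scaled CPM) and the macrophage sum in 30 °C replicate 1 (4339). Marco holds 996.8 of the macrophage sum in 30 °C replicate 1, and single macrophage markers differ in pattern.

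For 5 of the 9 members (C1qa, C1qb, C1qc, Cfp and C3ar1), the highest libraries were 4 °C replicate 2 and 30 °C replicate 1, that is, 1 tumour from each temperature. This pattern was noticed after the values had been seen, and 20% of all genes tested and 6 of the other 30 complement genes tested also had it. The median ratio of the highest to the lowest library was 1.89 for the members and 1.76 for all genes. For C3, C4b and Cfp the 95% confidence interval lay within 1 log2 unit on either side of 0, and for the other 6 members it reached further, so a difference of 1 log2 unit was not outside it.

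Another 50 complement genes were read by role, and 30 of them passed the filter on low counts. Of the 30, 14 had higher and 16 lower fitted values at 4 °C, with a median log2 fold change of -0.03, and 0 were called at an adjusted p under 0.05 (edgeR, smallest adjusted p = 0.73). Only Cd55 had an unadjusted p under 0.05, and it did not with RLE scaling, without the filter on low counts or without either tumour at 4 °C. The tumours at 4 °C lay wholly above those at 30 °C for 4 genes (C2, Serping1, Clu and Cd55) and wholly below for 1 (C5ar2), out of 30, where 12.2% and 11.0% of all genes tested did so.

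Among the initiating and early components, 7 of 16 were tested, 5 with higher and 2 with lower values. C2, the protease next to Cfb, had a log2 fold change of 0.28 (edgeR adjusted p = 0.835), but 46.9% of its exon bases are shared with other genes. Ficolins are pattern recognition molecules of the lectin pathway. Fcna, a macrophage ficolin, had a log2 fold change of 0.40 (edgeR adjusted p = 0.801), and Fcnb, a ficolin of the myeloid lineage, -0.96 (edgeR adjusted p = 0.80). Without 4 °C replicate 2 the log2 fold change was 0.09 for C2, 0.14 for Fcna and -1.58 for Fcnb, and without 4 °C replicate 1 it was 0.43, 0.61 and -0.53. Fcna was at 0.26 without 30 °C replicate 1 and Fcnb at -0.63 without 30 °C replicate 2. In the terminal pathway, which builds the membrane attack complex, 3 of 6 were tested. C6 had a log2 fold change of 0.42, C7 of -1.24 and C8g of -0.06, none of them called. Counts were low for C7, with 28, 38 and 7 at 30 °C and 16 and 9 at 4 °C, and for C8g, with between 16 and 50. C7 was at -0.41 without 30 °C replicate 2, the library rich in acinar transcripts.

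Inhibitors were read as soluble and membrane-bound groups. Of 8 soluble inhibitors 4 were tested, 2 with higher and 2 with lower values. Clu, a chaperone that also blocks the terminal complex, measured 412.8, 621.8 and 430.8 scaled CPM at 30 °C and 632.0 and 635.3 at 4 °C. Its groups did not overlap, yet the gap between the nearest tumours was small against the spread at 30 °C (log2 fold change 0.38, edgeR adjusted p = 0.818). Clu was at 0.58 without 30 °C replicate 2. Serping1, the C1 inhibitor, had a log2 fold change of 0.34 (edgeR adjusted p = 0.793), which was 0.22 without 4 °C replicate 2. Vtn, vitronectin, had -3.79 (edgeR adjusted p = 0.779) and rested on 30 °C replicate 2, the library rich in acinar transcripts, without which the value was -0.85. Of 10 membrane inhibitors 7 were tested, 3 with higher and 4 with lower values. Cd55, which speeds the decay of convertases, measured 83.1, 81.0 and 91.5 scaled CPM at 30 °C and 118.2 and 106.3 at 4 °C. All values at 4 °C were above those at 30 °C, with a log2 fold change of 0.40 (SE 0.16, 95% confidence interval 0.01 to 0.79, edgeR adjusted p = 0.73). The log2 fold change of Cd59a, an inhibitor of the membrane attack complex, was -0.54 and that of Cd46 was -1.01, neither of them called. Both depended on single tumours: Cd59a was at -0.29 without 30 °C replicate 2 and at -0.33 without 4 °C replicate 1. Cd46 was at -0.57 without 30 °C replicate 2, -0.58 without 4 °C replicate 2 and -1.72 without 4 °C replicate 1. Its counts were low, with 11, 27 and 33 at 30 °C and 19 and 7 at 4 °C.

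Of 10 other receptors and C1q-binding proteins 9 were tested, 3 with higher and 6 with lower values. C5ar2, the second receptor for C5a, measured 5.96, 6.41 and 5.72 scaled CPM at 30 °C and 3.58 and 4.07 at 4 °C. The groups were apart, with a log2 fold change of -0.65 (SE 0.28, edgeR adjusted p = 0.743). Itgam, the alpha chain of complement receptor 3, measured 100.6, 45.3 and 35.9 at 30 °C and 21.6 and 37.4 at 4 °C, for a log2 fold change of -1.04 (edgeR adjusted p = 0.765), which was -0.46 without 30 °C replicate 1 and -0.69 without 4 °C replicate 1. It followed C5ar1 closely, since C5ar1 counts per 100 Itgam counts were between 33.66 and 42.88 in the 5 libraries. Of the Itgam exon bases 68.7% are shared with Gm49368, which had between 8 and 21 counts, so the Itgam counts are uncertain. Cd93, a myeloid and endothelial surface protein, had a log2 fold change of -0.32 and was not called. It was at -0.09 without 4 °C replicate 2 and at -0.61 without 4 °C replicate 1.

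**Figure D4:**
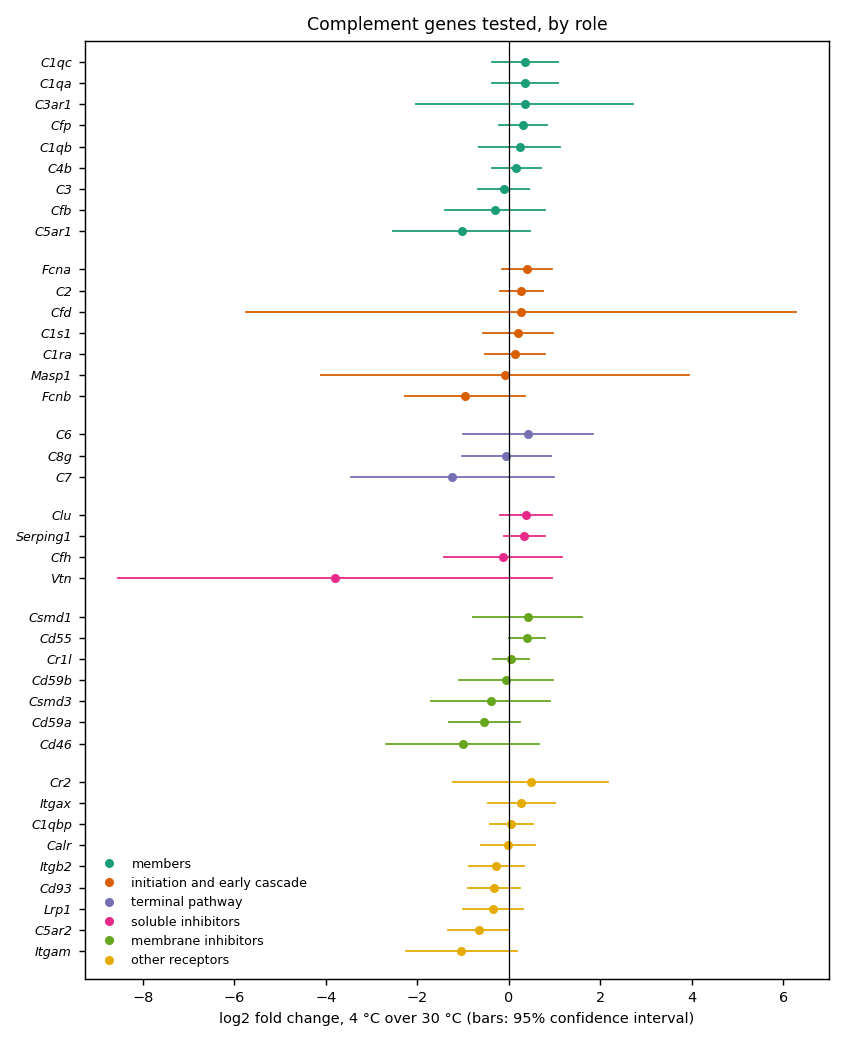
Log2 fold change at 4 °C over 30 °C (x axis, bars for the 95% confidence interval) of the 9 members and the 30 other complement genes tested, grouped by role. The interval of Cd55 (0.01 to 0.79) lies just above 0 and the others span it, and no gene was called after adjustment.

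Genes with a profile most like those of C1q and C3 were looked up by the root mean square difference of log2 CPM, each centred on its mean over the 5 libraries, among 10514 genes. Nearest to the mean of the C1q chains were Samd1 (0.0341), Bad (0.0378), Zfp637 (0.0381), Pdcd5-ps (0.0435) and Arl3 (0.0575), where the median gene was at 0.442. Between the chains themselves the difference was 0.0369 for C1qa and C1qc, 0.126 for C1qa and C1qb and 0.128 for C1qb and C1qc. Nearest to C3 were Sla (0.0516), Ubash3a (0.0551), Igkv8-30 (0.0586), Gm7694 (0.0604) and H6pd (0.0631), where the median gene was at 0.313. These are descriptions over 5 libraries.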

How the data were processed

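For RNA-seq, total RNA of 3 tumours at 30 °C and 2 at 4 °C was sequenced. The deposited values were taken as raw read counts per gene, for which the paper names featureCounts on Gencode vM19. The submitters' processing notes also name fastp, HISAT and RSEM, with no role, and the build GRCm38. Which of these tools made the deposited values is therefore uncertain. The handling of strand and of overlapping genes is not given in the sources used here. Unnamed entries (333 of 54446, 0.0101% to 0.017% of counts) were left out, and of 97 symbols shared by several entries the one with the highest mean kept the symbol, while the others stayed in the scaling and the fit under a name of their own. Depth was 16191708 to 20320525 counts per library, and 3 counts or fewer were taken as the floor.

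Counts were filtered by filterByExpr, TMM-scaled and compared with the robust quasi-likelihood F-test of edgeR 4.0.16 in R 4.3.3, with no covariate and Benjamini-Hochberg adjustment over 16133 genes. P-values rest on the spread between these few tumours, with 3 residual degrees of freedom, moderated by the spread over all genes tested. Confidence intervals use the moderated degrees of freedom. The SE is the size of the log2 fold change over the square root of the F statistic. Scaled CPM are counts over the TMM-scaled total of tested genes. Exon lengths, overlaps and positions come from GENCODE M21 on GRCm38, and promoters from RefSeq on GRCm38.p6. The steps were run on simulated counts with a common spread for all genes. As the spread of the members differs, that run cannot tell what size of difference would be found for them.

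The 9 members and all lists were chosen with earlier results of these data known. Named beyond the members were C4a and C2, the 3 smallest p in each role and the 5 nearest profiles to C1q and to C3 at a mean log2 CPM of at least 3 (prior count 2). Others, such as Calr, Hc and Gm20547, were named after their values were seen. Alternatives were the Wald test of DESeq2 1.42.0, scaling by upper quartile or RLE, omission of the filter, a minimum of 10 counts throughout, a replicate block, no robust estimation, removal of acinar genes, each tumour left out and an unadjusted threshold.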

Additional observations from a re-analysis of the deposited data

How the results depend on the processing

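None of the 9 members and none of the other complement genes was called under any of the 13 alternative settings at an adjusted p under 0.05. Over all genes 0 were called with edgeR, but 112 with DESeq2 and 44 with the replicate block, and 1090 had an unadjusted p under 0.05. At that unadjusted threshold 1 of the other complement genes passed and 0 members in the main fit. The count for the other complement genes was 0 with RLE scaling, where 1093 of all 16133 genes passed. It was also 0 with no filter, where 1297 of 27400 genes passed. It was 4 with DESeq2, which was run on all 54113 entries without the filter and where 1315 passed. Without 30 °C replicate 3 it was 4 as well, where 1477 of 15786 genes passed. Of 117 alternative log2 fold changes of the members 107 kept their direction. Leaving out 1 tumour gave ranges of -0.18 to 0.73 for C1qa, -0.36 to 0.64 for C1qb, -0.14 to 0.71 for C1qc, -0.30 to 0.046 for C3, -0.20 to 0.44 for C4b, -0.73 to 0.16 for Cfb, -1.92 to 1.26 for C3ar1, -0.0053 to 0.75 for C6 and -0.21 to 0.17 for C8g. The turn was without 4 °C replicate 2 for the C1q chains, C3ar1, C3 (0.03) and Cfb (0.02), without 30 °C replicate 1 for C3, Cfb and C6, without 4 °C replicate 1 for C4b and C8g (0.08), and without 30 °C replicate 3 for C8g. The replicate block turned C3ar1 (-0.41) and C8g (0.17). The cause was not tested. The replicate numbers were not taken as pairs in the main fit. Deviations of same-numbered tumours from their group means correlated at -0.255 and 0.259. With 2 tumours at 4 °C these deviations mirror each other, so the correlations cannot decide whether the numbers are pairs. Fits without a tumour at 4 °C leave 1 there, which is assumed to vary like those at 30 °C. Low counts left 20 of the 50 other complement genes untested. Scaling moved the median over all genes by less than 0.1 log2 units.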

Other observations

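Several complement genes outside the rule for named genes differed between single tumours rather than between temperatures, and they were picked after their values were seen. Masp1, a serine protease of the lectin pathway, had 817, 35 and 204 counts at 30 °C and 48 and 545 at 4 °C, an 18.2-fold range in scaled CPM. Its highest libraries were 30 °C replicate 1 and 4 °C replicate 2, as for C3ar1. Cfd, the factor D known as an adipocyte product, had 0, 150 and 0 counts at 30 °C and 128 and 53 at 4 °C. Cpn1, a subunit of the carboxypeptidase that inactivates anaphylatoxins, had 251 counts in 30 °C replicate 2 and at most 5 in the other libraries. Cr2, a complement receptor of B cells and follicular dendritic cells, was between 6.856 and 14.01 counts per 100 B cell marker counts, and its groups overlapped.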
